A study of Mus musculus with 96 samples.

Results

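The microRNA mir-21a was followed in the liver of 96 mice of a Huntington's disease allelic series. It was found in the deposited count table by its hairpin accession, MI0000569, which is 1 of 1187 hairpins, and its level is given as CPM, the count scaled to the sum of all counts in its library. Males had about 2 times the level of females at both ages, with no overlap of the sexes within any genotype or line at either age. Such separation held for 3.92% of the hairpins tested at 10 months and 3.21% at 6 months. No comparison of genotypes called mir-21a, nor did the test along CAG length. All mice were C57BL/6 by label. WT mice were littermates of the Q50 line or of the Q20 line, and their mouse Htt genes carried no knock-in. Q20, Q50, Q92 and Q140 mice were heterozygous, with 1 unaltered Htt allele and 1 that held a knocked-in first exon of human HTT with 20, 50, 92 or 140 CAG repeats. Htt is the gene of huntingtin, in which expanded CAG repeats are the cause of Huntington's disease. Livers were taken at 10 and at 6 months from different mice, 4 males and 4 females per genotype or line and age, which gave 24 groups of 4. Q20 and WT mice served as the controls. WT mice of the Q92 and Q140 lines were not analysed here, so for these lines the repeat and the line itself cannot be told apart. According to the methods, cages held mice of 1 sex, so sex and cage cannot be told apart either. The replicates are single mice.

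MicroRNAs are short RNAs cut from a hairpin and loaded into Argonaute proteins, where bases 2 to 8, the seed, pair with target messenger RNAs and lower their output. miR-21 is made in most tissues, and in the liver it is known for rising during regeneration, fat accumulation and fibrosis, in hepatocytes and in stellate cells and immune cells alike. Its known targets include Pdcd4, an inhibitor of translation. In bulk liver, a change in the number of cells of a type cannot be told apart from a change in RNA per cell.

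In the GRCm38 assembly (mm10) the Mir21a hairpin lies on the minus strand of chr11:86584067-86584158. GENCODE places it inside Vmp1 (chr11:86583865-86683836, same strand), a gene for a membrane protein of autophagy, in exon 12 and in the untranslated stretch of that exon (chr11:86583865-86585310). The hairpin length recovered from the deposited FPKM was 92 nt, the same as the 92 nt of the Mir21a hairpin in RefSeq. The mature forms from RefSeq (GRCm38.p6) are shown because the table counts whole hairpins, so both arms fall into the single value used here, and because mir-21b (chromosome 3, hairpin of 108 nt) and mir-21c (chromosome 8, hairpin of 78 nt) are close relatives. Capitals mark the seed.
miR-21a-5p: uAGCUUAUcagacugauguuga
miR-21a-3p: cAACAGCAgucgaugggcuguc
miR-21b: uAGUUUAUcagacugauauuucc
miR-21c: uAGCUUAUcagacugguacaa
The 5p arm of mir-21a and miR-21c had the same seed. No mature microRNA outside this family was found with it among the 1738 in the RefSeq table, and microRNAs absent from that table were not searched. Counted from base 1 at the 5′ end of miR-21a-5p, which stands first in each change, miR-21c differed by A16G, G18A, U19C, U20A and G21A. miR-21b differed inside the seed by C4U, and outside it by G18A, G21U and A22C. The count table carries accessions without names, so the rows of mir-21b and mir-21c are not reported here, and how reads that fit several of these hairpins were handled was not tested. The counts of mir-21a were whole numbers in all 96 libraries (tolerance 0.0001), whereas 248 hairpins held values that were not whole. No other hairpin had the same counts.

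mir-21a was among the most abundant hairpins of the liver. It took 4.30% of all counts, and its mean FPKM, which is scaled per length, had rank 6 among all hairpins. The rank ran from 3 to 7 in males and from 6 to 12 in females over both ages. Each library held between 98362 and 464603 reads of mir-21a out of totals between 2195052 and 6662671. Counting error was therefore small. The lowest library, Q50 female replicate 4 at 6 months, had 21859 CPM (95% Wilson interval 21742 to 21975), and the highest, Q92 male replicate 1 at 10 months, had 84223 CPM (83992 to 84455). These intervals cover counting error only. The coefficient of variation between the 4 mice of a group ran from 7.09% to 25.1% with a median of 12.7%, against a counting error of at most 0.319%. Across libraries, deviations from the group mean had a Pearson correlation of -0.09 with the deviation of the log2 library total over the 96 libraries, given as a description.

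At 10 months, the 24 males had 38274, 64991 and 84223 CPM as lowest, median and highest value, and the 24 females had 24325, 30319 and 41408 CPM. At 6 months, males had 38583, 54143 and 74267 CPM, and females had 21859, 28241 and 34904 CPM. All 24 males lay above all 24 females at 6 months, and 23 of 24 did at 10 months, where a WT male of the Q50 line (replicate 1) fell short at 38274 CPM. Non-overlap of this kind was rare among hairpins: all males lay above all females in 3.21% of the 374 hairpins tested at 6 months, and at least 23 of 24 did in 4.18% of the 383 tested at 10 months.

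The mean was 62670 ± 10944 CPM in males and 30960 ± 4927 CPM in females at 10 months (SD, n = 24 each), a ratio of 2.02. At 6 months it was 54593 ± 9410 CPM in males and 28155 ± 3283 CPM in females (SD, n = 24 each), a ratio of 1.94. The model held genotype and a tag in the library names (L5 to L8), taken here as the lane. In it, the log2 difference between males and females was 1.06 ± 0.07 (SE) at 10 months and 0.98 ± 0.06 at 6 months. Fits at 10 months, here and in what follows, left out 4 of 48 libraries that stood apart over all hairpins (Q92 male replicate 2, Q92 female replicate 1 and male replicate 3 of each WT line), and with all 48 the difference was 1.02 ± 0.07. The edgeR adjusted p was 9.16e-17 and 2.58e-18 at these ages. In fold terms the 95% intervals were 1.90 to 2.28 at 10 months and 1.82 to 2.14 at 6 months. In a permutation test with sex shuffled within genotype and line, p was 1e-05 at each age, the smallest value that 100000 resamples give. Over the 15 permutation tests of mir-21a, the adjusted p was 7.5e-05 for each.

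The background of sex differences was wide, since 45.2% of hairpins passed the same test at 10 months and 38.2% at 6 months. Hairpins higher in males made up 21.9% at 10 months and 22.5% at 6 months, and those lower in males 23.2% and 15.8%. With the 10 most abundant other hairpins taken out of the library totals, the calls were 63 higher and 160 lower in place of 84 and 89 at 10 months, and 56 and 111 in place of 84 and 59 at 6 months. mir-21a was then at 0.94 and 0.87 at these ages and still called. Among abundant hairpins mir-21a stood apart in size. Of 17 hairpins with a mean of 10000 CPM or more, mir-21a had the largest log2 difference between the sexes at either age, and the next was 0.28 in size at 10 months and 0.22 at 6 months. Of these 17, mir-21a included, 3 were called higher and 8 lower in males at 10 months, and 2 higher and 5 lower at 6 months. The median size over all hairpins tested was 0.21 at 10 months and 0.20 at 6 months. Larger differences than that of mir-21a were seen in less abundant hairpins, and mir-21a ranked 44 of 383 by size at 10 months and 36 of 374 at 6 months. The plot of the sex difference of every hairpin shows these at lower mean levels.

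**Figure D1:**
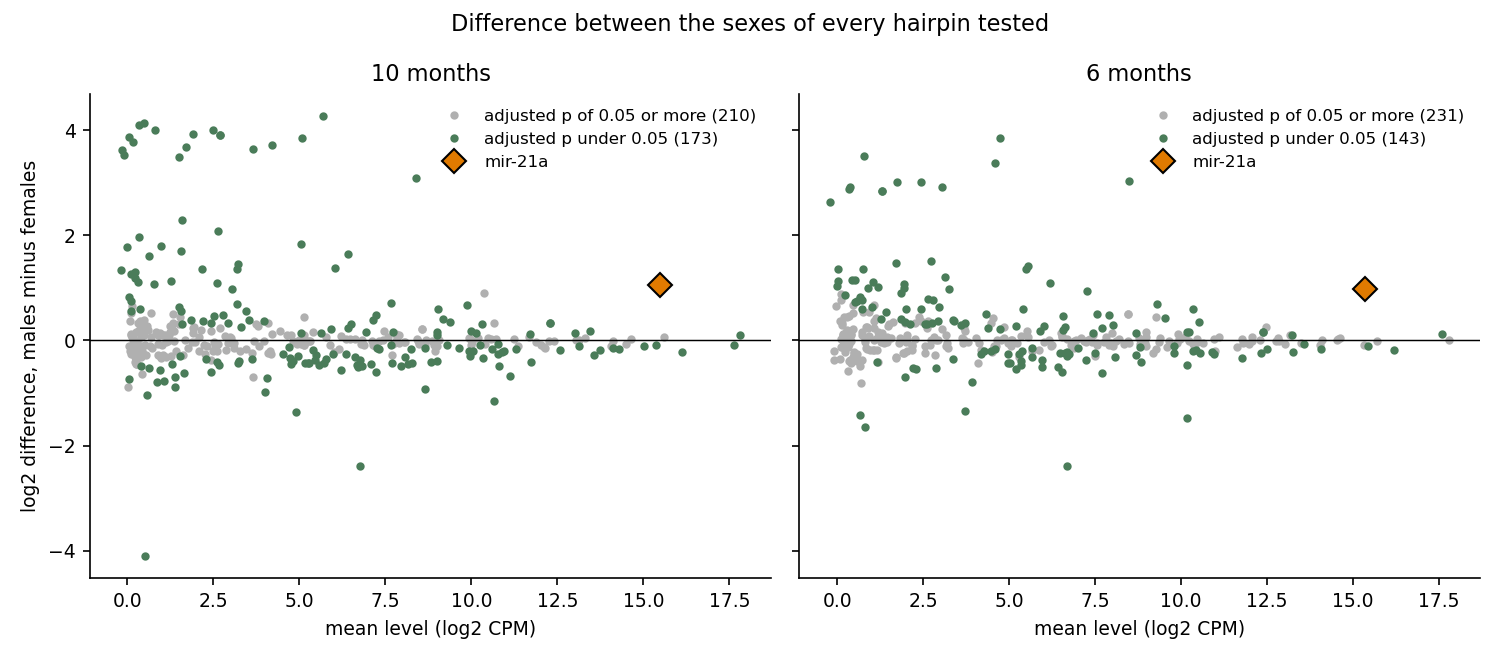
Log2 difference between males and females (vertical axis) against mean log2 CPM (horizontal axis) for every hairpin tested, at 10 months (left, 383 hairpins) and 6 months (right, 374 hairpins), coloured by whether the edgeR adjusted p was under 0.05. mir-21a (diamond) sits far to the right at log2 differences of 1.06 and 0.98. Among the other hairpins of 10000 CPM or more, the largest difference was 0.28 and 0.22 in size.

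The sex difference was present within each genotype and line. At 10 months, WT males of the Q50 line had 38274, 47464, 52710 and 48557 CPM, and WT females of that line had 33377, 25550, 30547 and 34302 CPM. WT males of the Q20 line had 58994, 67185, 55770 and 73618 CPM, and WT females of that line had 32182, 32708, 41408 and 31134 CPM. WT males of the Q50 line were the low ones, and each of the 4 lay below every male of Q20 and of WT of the Q20 line. Q20 males had 74955, 77092, 64997 and 71744 CPM, and Q20 females had 29357, 31274, 29064 and 36485 CPM. The ratio of male to female means was 1.51 for WT of the Q50 line, 1.86 for WT of the Q20 line, and 2.29 for Q20. The first of these was the lowest of the 12 ratios over both ages.

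At the same age, Q50 males had 70821, 51033, 65596 and 66585 CPM, and Q50 females had 25255, 24325, 26654 and 30092 CPM. Q92 males had 84223, 64985, 51767 and 59504 CPM, and Q92 females had 38516, 39117, 25562 and 26068 CPM. Q140 males had 61251, 71786, 56558 and 68599 CPM, and Q140 females had 27169, 27069, 27824 and 37998 CPM. The Q92 females formed a high and a low pair, and 1 of the high pair (replicate 1) was left out of the tests. The ratio of the means was 2.39 in Q50, the highest of the 12, 2.02 in Q92 and 2.15 in Q140.

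At 6 months, WT males of the Q50 line had 44076, 50325, 56168 and 72118 CPM, and WT females of that line had 25728, 28432, 31052 and 28160 CPM. WT males of the Q20 line had 50542, 49531, 74267 and 52120 CPM, and WT females of that line had 31492, 26965, 31247 and 28321 CPM. In both WT lines the gap of the highest male to the other 3 was wider than the spread of these 3. Q20 males had 45764, 58842, 59040 and 69363 CPM, and Q20 females had 26830, 28871, 34716 and 26274 CPM. The ratio was 1.96 and 1.92 in WT of the Q50 and Q20 lines, and 1.997 in Q20.

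At that age, Q50 males had 58235, 47701, 57136 and 62024 CPM, and Q50 females had 27277, 27882, 29092 and 21859 CPM. Q92 males had 49269, 54093, 58648 and 54193 CPM, and Q92 females had 28880, 22613, 22854 and 25306 CPM. Q140 males had 42186, 64093, 41912 and 38582 CPM, and Q140 females had 30876, 28664, 34904 and 27415 CPM. The Q140 males were the low group among males, apart from replicate 2. The ratio was 2.12 in Q50, 2.17 in Q92 and 1.53 in Q140. In all 6 genotype and line groups at either age every male lay above every female, which held for 3.92% of hairpins at 10 months and 3.21% at 6 months. Whether the sex difference itself differed between genotypes was tested only along CAG length.

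**Figure D2:**
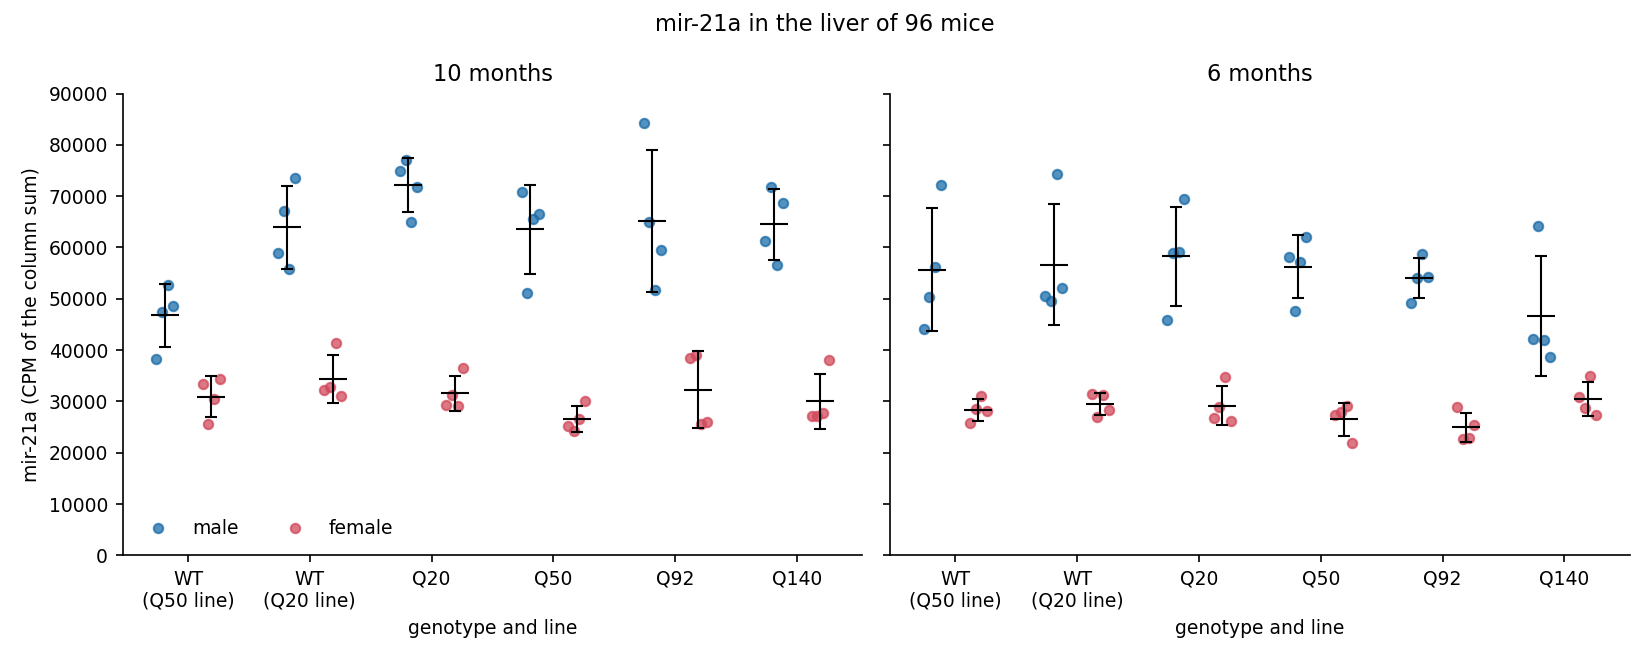
Level of mir-21a in CPM (vertical axis) in each of 96 mice by genotype and line (horizontal axis), at 10 months (left) and 6 months (right). Points are mice, horizontal marks are means and bars are SD (n = 4), with males (blue) left of females (red). The male points lie above the female points in every pair, and WT males of the Q50 line at 10 months (46751 ± 6087 CPM) and Q140 males at 6 months (46693 ± 11715 CPM) are the lowest male groups.

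Ordered by mean, the 12 female groups lay below the 12 male groups. The lowest was Q92 females at 6 months with 24913 ± 2911 CPM, and the highest female group was WT of the Q20 line at 10 months with 34358 ± 4745 CPM (SD, n = 4 each). The male groups ran between Q140 at 6 months with 46693 ± 11715 CPM and Q20 at 10 months with 72197 ± 5279 CPM. The highest mean was 2.90 times the lowest. Of the 23 pairs of neighbours in this order, 21 differed by less than their pooled SD, and all 23 pairs had overlapping ranges. The pairs that differed by more were Q140 males at 6 months against WT females of the Q20 line at 10 months, where the sexes meet, and Q92 males at 6 months against WT males of the Q50 line at 10 months.

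The library names carry a tag (L5 to L8), which the labels do not define and which is taken here as the lane. Males and females shared these tags. At 10 months the ratio of male to female means was 1.99 in L5 (6 males, 7 females), 2.11 in L6 (13 and 13) and 1.87 in L7 (4 and 4). At 6 months it was 1.85 in L6 (8 males, 10 females) and 1.96 in L7 (14 and 13). Within each of these lanes every male lay above every female, which at 6 months follows from the non-overlap of all mice. The share of hairpins that separate within lanes was not computed. L8 held 1 male and no female at 10 months and 3 libraries at 6 months, too few for a value.

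The next question was whether mir-21a differed between 10 and 6 months. As CPM of the column sums the mean was 62670 CPM at 10 months and 54593 CPM at 6 months in males, and 30960 CPM at 10 months and 28155 CPM at 6 months in females. The ratios of these means were 1.15 in males and 1.10 in females. The mean was higher at 10 months in 10 of 12 groups of genotype, line and sex, with ratios between 0.840 in WT males of the Q50 line and 1.38 in Q140 males. The ranges of the ages overlapped in all 12 groups, and 34 of the 48 mice of 10 months lay above the 6-month mean of their group.

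The call on age depended on the scaling. With TMM scaling the log2 difference was 0.04 ± 0.04 (SE), and mir-21a was not called (edgeR adjusted p = 0.452), while 58.6% of the 408 hairpins tested were. With plain column sums it was 0.16 ± 0.05 with an edgeR adjusted p of 0.0015, and a permutation test within sex, genotype and line gave 0.15 with p = 0.00142 (adjusted over the 15 tests, 0.0071). The median difference of all hairpins tested was 0.13 with column sums and 0.01 with TMM, a shift of 0.12, and the calls were 168 higher and 71 lower with column sums, against 129 (31.6%) and 110 (27.0%) with TMM. mir-21a lay 0.03 above that median under either scaling. Without the 10 other most abundant hairpins in the library total, which hold 72.0% of all counts, the difference was 0.10 ± 0.04 (edgeR adjusted p = 0.0198). The labels do not say whether a lane tag stands for the same run at 10 and 6 months, so a difference of age and one of sequencing cannot be told apart.

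**Figure D3:**
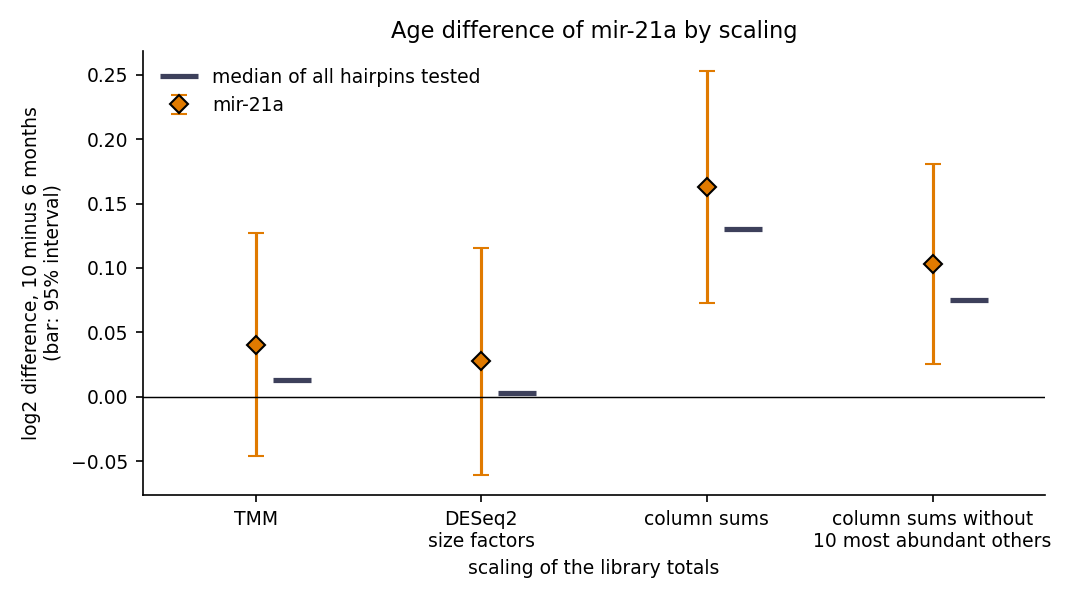
Log2 difference of mir-21a between 10 and 6 months (diamonds, with 95% intervals as bars) and median difference of all hairpins tested (dark marks) under 4 ways of scaling the library totals (horizontal axis). mir-21a stays within 0.04 of the median of all hairpins under each scaling, and both move up together with plain column sums.

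The male to female difference was 0.09 ± 0.09 (SE) larger on the log2 scale at 10 months than at 6 months, which did not pass (edgeR interaction, adjusted p = 0.712). The 95% interval of this change ran from -0.09 to 0.26. edgeR called 0 of 408 hairpins in this test and DESeq2 called 2, while 53 had an unadjusted p under 0.05 in edgeR.

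The study's main question was whether long CAG repeats change microRNAs, which is addressed by setting Q50, Q92 and Q140 mice against the controls. mir-21a was not called in any of these. At 10 months the log2 difference from controls was -0.15 ± 0.10 (SE) in Q50, -0.03 ± 0.11 in Q92 and -0.07 ± 0.10 in Q140. The edgeR adjusted p was 0.9996 in Q50, 0.937 in Q92 and 0.846 in Q140. At 6 months it was -0.09 ± 0.09 in Q50, -0.12 ± 0.08 in Q92 and -0.07 ± 0.08 in Q140, with edgeR adjusted p of 0.998, 0.722 and 0.996 in that order.

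The intervals limit the size of a change that could have been missed. In Q140 mice the fold against controls had a 95% interval of 0.837 to 1.09 at 10 months and 0.848 to 1.06 at 6 months. In Q92 it ran from 0.844 to 1.14 at 10 months and from 0.823 to 1.03 at 6 months. In Q50 it ran from 0.790 to 1.03 at 10 months and from 0.837 to 1.06 at 6 months. All of these bounds lie nearer to 1 than the fold between the sexes, and a true change within them is not excluded by these data. Single libraries moved these small differences by more than 1.5 times, apart from Q50 at 10 months, and none brought a call. Leaving out 1 at a time, Q140 ran between -0.13 and -0.03 at 10 months and between -0.13 and -0.02 at 6 months. Q92 ran between -0.14 and 0.02 at 10 months and between -0.14 and -0.06 at 6 months, and Q50 between -0.18 and -0.11 and between -0.12 and -0.05 at these ages. The background of calls was low in the same tests. edgeR called 1.04% of hairpins for Q92 (0.783% higher, 0.261% lower) and 1.31% for Q140, all higher, at 10 months, and 0.267% for Q92 at 6 months. For Q50 at 10 and 6 months and for Q140 at 6 months it called 0, with 9, 7 and 5 hairpins at an unadjusted p under 0.05, and DESeq2 called 0 as well.

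**Figure D4:**
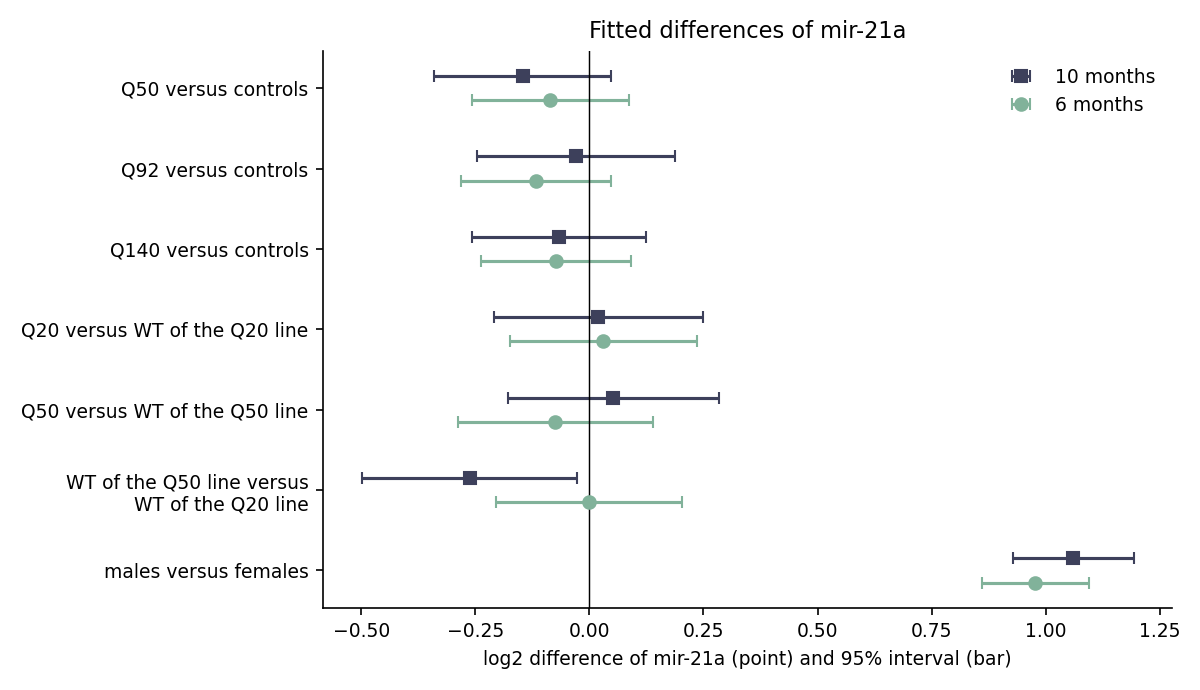
Fitted log2 differences of mir-21a (points) with 95% intervals (bars) for the comparisons of genotypes, lines and sexes named on the vertical axis, at 10 months (squares) and 6 months (circles). The sex differences lie near 1, all genotype intervals include 0, and the interval between the WT lines at 10 months, a test that did not pass after adjustment, lies below 0.

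Within 1 sex the genotype means moved both ways. At 10 months Q140 males had 64548 ± 6916 CPM (SD, n = 4) against 60947 ± 12567 CPM in control males (n = 12), and Q140 females had 30015 ± 5333 CPM (n = 4) against 32283 ± 4000 CPM in control females (n = 12). At 6 months Q140 males had 46693 ± 11715 CPM against 56846 ± 10210 CPM in control males, and Q140 females had 30465 ± 3288 CPM against 29008 ± 2640 CPM in control females. The direction thus turned round between the sexes and between the ages. The lowest ratios to controls of the same sex and age were 0.821 in Q140 males at 6 months and 0.823 in Q50 females at 10 months, where 0 of 4 mice lay above the control mean. Q92 females at 6 months had a ratio of 0.859, also with 0 of 4 mice above the control mean. These groups were picked for their values, so no test is given.

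Exact permutation tests within sex gave p between 0.0828 (Q92 at 6 months) and 0.884 (Q140 at 10 months) over the 6 comparisons with controls. Within lanes that held both a genotype and controls of the same sex, the log2 difference of Q50 was below 0 in 2 of 2 lanes at 10 months and 2 of 2 at 6 months. That of Q92 at 10 months was 0.09 in L6 (6 mice, 11 controls) and 0.05 in L7 (2 mice, 2 controls, 1 sex). At 6 months that of Q92 was -0.09 in L6 (3 mice, 8 controls) and -0.15 in L7 (4 mice, 16 controls). That of Q140 ran between -0.27 and 0.10 over 3 lanes at 10 months and between -0.24 and 0.01 over 2 lanes at 6 months. These lane values keep all libraries, whereas the fits and permutation tests left out 4 at 10 months. Each rests on few mice, and no test within lanes is given. Against Q20 alone as controls Q50 at 10 months had -0.25 ± 0.10, the largest fitted difference from controls, with an unadjusted p of 0.0206 and an edgeR adjusted p of 0.399.

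Taken as a number, with WT set to 7 repeats, CAG length had a slope of -0.04 ± 0.07 (SE) per 100 repeats on the log2 scale at 10 months and -0.07 ± 0.06 at 6 months. Neither passed, with edgeR adjusted p of 0.837 and 0.995. Leaving out single libraries gave slopes between -0.08 and -0.02 at 10 months and between -0.11 and -0.04 at 6 months. The background was 2.09% of hairpins called at 10 months (1.83% higher, 0.261% lower) and 0% at 6 months, where 8 had an unadjusted p under 0.05 and DESeq2 called 0. The slope at 10 months minus that at 6 months was -0.01 ± 0.09 (edgeR adjusted p = 0.985), a value whose sign changed in 9 of 11 alternatives. The slope in males minus that in females was 0.16 ± 0.14 at 10 months (edgeR adjusted p = 0.985) and -0.19 ± 0.11 at 6 months (edgeR adjusted p = 0.978). In these interactions edgeR called 0 hairpins, with 43 at an unadjusted p under 0.05 for age, and 15 at 10 months and 9 at 6 months for sex. DESeq2 called 5 for sex at 10 months and 0 in the others. The 6-month value became -0.30 without Q140 male replicate 2, the high mouse of its group, with an unadjusted p of 0.00855 and an edgeR adjusted p of 0.884. The 10-month value became -0.15 with WT mice left out, so its sign depended on the WT mice.

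As in the methods, the ages were also combined into a single signed Z per hairpin (Stouffer). The combined Z was -1.71 for Q50, -1.15 for Q92 and -1.09 for Q140 against controls, and -1.23 for CAG length. The adjusted p over 366 hairpins was 0.9996, 0.799, 0.887 and 0.787 in that order. The background was 0.273% of hairpins for Q92 and 0.546% for CAG length, and 0 for Q50 and Q140 by edgeR, with 10 and 26 at an unadjusted p under 0.05 and 0 by DESeq2.

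Within their own lines, Q50 mice differed from WT of the Q50 line by 0.05 ± 0.12 (SE, log2) at 10 months and -0.07 ± 0.11 at 6 months (edgeR adjusted p of 0.984 and 0.992). Q20 mice differed from WT of the Q20 line by 0.02 ± 0.12 at 10 months and 0.03 ± 0.10 at 6 months (edgeR adjusted p of 0.988 and 0.947). edgeR called 0 hairpins in each of these. At 10 and 6 months 17 and 1 hairpins had an unadjusted p under 0.05 for Q50 and 39 and 24 for Q20, and DESeq2 called 0. These are littermate comparisons of the same line. In fold terms the 95% intervals at 10 months ran from 0.883 to 1.22 for Q50 and from 0.865 to 1.19 for Q20. At 6 months they ran from 0.819 to 1.10 for Q50 and from 0.886 to 1.18 for Q20.

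The WT mice of the Q50 and Q20 lines, both without a knock-in allele, were also set against each other. At 10 months WT of the Q50 line had 25550, 36288 and 52710 CPM as lowest, median and highest of 8 mice, and WT of the Q20 line had 31134, 48589 and 73618 CPM. The log2 difference was -0.26 ± 0.12 (SE), with an unadjusted p of 0.0357 and an edgeR adjusted p of 0.419, so it did not pass. The exact permutation test within sex gave -0.36 with p = 0.0214, and 0.0804 after adjustment over the 15 tests. Male means were 46751 ± 6087 CPM for the Q50 line and 63892 ± 8071 CPM for the Q20 line, and female means were 30944 ± 3935 CPM for the Q50 line and 34358 ± 4745 CPM for the Q20 line (SD, n = 4 each). At 6 months the fitted difference was -0.00 ± 0.10 (edgeR adjusted p = 0.997), with 15 hairpins at an unadjusted p under 0.05 and 0 called by edgeR or DESeq2. None of 383 hairpins was called by edgeR in this test at 10 months, where 43 had an unadjusted p under 0.05 and DESeq2 called 1. At 10 months the fit and the permutation test left out 1 male of each line. With all libraries kept, the fitted difference at 10 months was -0.26 ± 0.12 (edgeR adjusted p = 0.458).

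The pattern of mir-21a over the 24 group means was compared with that of 208 other hairpins with a mean of at least 10 CPM. The closest were MI0004127 (96 nt) with a Pearson correlation of 0.976 and MI0009939 (85 nt) with 0.961, on log2(CPM + 1). The most opposed were MI0004120 (82 nt) with -0.957 and MI0000223 (76 nt) with -0.881. The 24 means fall into males and females, which all of these correlations share. After the group means were taken away, the 96 libraries gave 0.591 for MI0003521 (90 nt) and 0.508 for MI0009991 (73 nt), and -0.509 for MI0004120 and -0.496 for MI0000246 (76 nt). MI0004120 was thus lowest in both, between groups and between mice of a group. These correlations share libraries and library totals and are given as descriptions.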

How the data were processed

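Small RNA from 96 livers was sequenced by the authors as short strand-specific single-end reads. The methods state that these were placed on mm10 with STAR and counted with HTSeq. The submitters' processing notes name CASAVA 1.8.2. The authors deposited estimated counts per hairpin, and FPKM values, which served here only for lengths and ranks. Counts were not whole in 248 hairpins, and the methods do not say how these values arose. No deposited column was left unused. Before testing, the estimated counts were rounded to whole reads.

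Groups came from the labels. At each age, libraries with a robust connectivity (Z.k, how close a library lies to the others) under -5 were left out of the tests, as in the study's methods. These were 0 of 48 at 6 months and 4 of 48 at 10 months: Q92 male replicate 2, Q92 female replicate 1, and male replicate 3 of WT of the Q20 line and of WT of the Q50 line. CPM levels keep all 96. The main test was the quasi-likelihood F test of edgeR 4.0.16 (R 4.3.3, TMM scaling) on hairpins that reached 1 CPM in 8 or more libraries, with Benjamini-Hochberg adjustment over all of them and a threshold of 0.05. Sex, genotype and lane tag entered the fits within an age, and sex and genotype the fit of age. The study's methods name batch as a covariate without defining it, and the lane tag stood in for it. DESeq2 1.42.0, with and without the study's replacement of outlying values, other scalings, filters, controls, a replicate block and leaving out each library were alternatives. Only the test of sex within an age was checked on simulated data.

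Hairpins are given by accession because 0 of them could be matched to names, so the lists of injury-linked and cell type microRNAs could not be run and the tissue label was not checked against markers. Likeness is named by the highest and lowest correlations. The member and lists were chosen with earlier results of these data known. Same-numbered libraries of different groups had a mean correlation of deviations of 0.0073 at 6 months and -0.0026 at 10 months. This mean also runs over groups of different lines, so it cannot show whether same-numbered mice of a line were littermates. The labels do not give litters, so litter was not in any fit.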

Additional observations from a re-analysis of the deposited data

Results flagged for a closer look

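In 4 of 24 groups, 1 mouse lay far from the other 3, where chance gives about 1 in 20 groups. Q140 female replicate 4 at 10 months had 37998 CPM, against 27069 to 27824 CPM in the others. Among WT mice of the Q20 line at 10 months, female replicate 3 had 41408 CPM, against 31134 to 32708 CPM. Q140 male replicate 2 at 6 months had 64093 CPM, against 38583 to 42186 CPM. At 6 months, WT male replicate 3 of the Q20 line had 74267 CPM, against 49531 to 52120 CPM. All 4 were the high mouse of their group, and none of them was among the libraries left out of the tests.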

How the results depend on the processing

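The sex difference was called in all 11 alternatives at each age, at 0.94 to 1.10 (log2) at 10 months and 0.87 to 0.99 at 6 months, and leaving out single libraries gave 1.03 to 1.10 and 0.913 to 0.995. Age passed with column sums (0.16), without the 10 most abundant others (0.10) and in the permutation test (0.15), which also uses column sums. Values near 0 changed sign without being called. The slope by age was 0.0147 with DESeq2 size factors in edgeR and with DESeq2, 0.0121 without the filter, 0.0237 on replaced counts, 0.00278 with lane tag, 0.0248 with all libraries, 0.00945 with a Z.k limit of -3, 0.0805 with column sums and 0.0430 without the 10. Q20 against its WT was -0.00138 without the filter and -0.000202 by permutation at 10 months, and -0.0117 with the Z.k limit of -3 and -0.0203 with column sums at 6 months. The WT lines at 6 months gave 0.00146 without lane tag. With WT alone as controls at 10 months, Q92 was 0.0551 and Q140 0.00387, and with WT left out the slope by sex was -0.146. Leaving out single libraries turned the sign of Q20 against WT (-0.0249 to 0.0801 at 10 months, -0.0101 to 0.108 at 6 months), Q50 against WT at 10 months (-0.0104 to 0.144), Q92 against controls at 10 months (-0.144 to 0.0231), the WT lines at 6 months (-0.0628 to 0.0666) and the slope by age (-0.0356 to 0.0443). In each of these the cause was not tested. The replicate block (sex at 10 months 1.05, at 6 months 0.97) changed no call. Over groups of all lines, own replicate number correlated best in 12 of 48 libraries at 6 months and 13 of 48 at 10 months. Pairing of littermates within a line was not tested. The highest group mean was 2.85 times the lowest with TMM, 2.53 without the 10, and 2.81 to 3.06 when single libraries were left out. Each library held at least 98362 reads of mir-21a.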
